A study of Sus scrofa with 9 samples.

Results

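These data follow 125 genes whose transcripts were lower, by 1.5-fold or more, in porcine granulosa cells treated with either sulforaphane or follicle-stimulating hormone (FSH) than in untreated controls. The members were chosen from 1081 deposited rows by their mean FPKM (read fragments scaled to transcript length and library depth): the mean of the 3 sulforaphane libraries and the mean of the 3 FSH libraries each had to be at most the control mean divided by 1.5, and the control mean at least 2 FPKM. This took 159 rows, of which 31 were left out by their symbols (among them SLC transporters, collagens, keratins, HSPB chaperones and the smooth muscle genes ACTA2, MYH11, DES and LMOD1) and 3 because they carry no symbol. The fall against control is therefore how the genes were found and is described without a test. The difference between the 2 treatments was not part of the rule and was tested. Unless another scaling is named, a difference that passed or did not pass is one scaled to library depth.

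All 9 libraries came from primary granulosa cells of the ovary of wild-type pigs. The groups were untreated control cells, cells given sulforaphane and cells given FSH, with 3 libraries each. The labels give no dose, duration or age, and are silent on whether the 3 libraries per condition are separate cultures or donors. The p-values thus measure only the spread between these libraries, which may be technical. The series asks how the 2 agents alter the transcriptome of these cells.

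Granulosa cells surround the oocyte, convert androgen to oestrogen and respond to FSH through a receptor that raises cyclic AMP and activates protein kinase A. Cyclic AMP is also known to loosen actin stress fibres in cultured granulosa cells, which spread and become contractile on plastic. Sulforaphane, an isothiocyanate of cruciferous vegetables, reacts with cysteines of the sensor KEAP1 and so releases the transcription factor NRF2. The genes below encode muscle and actin-binding proteins, secreted ligands, matrix proteins and proteases, surface receptors and channels, small GTPase regulators, transcription factors and enzymes. This grouping was made by hand after the values were seen and serves only to order the account.

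The deposited rows held 1217490 to 1756337 counts per library, which was 6.72% to 8.38% of the library depth estimated by dividing counts by FPKM. No tested row lay closer to control than 1.3-fold in the mean of either treatment. Of the 919 rows tested, 368 were lower than control with both treatments, and the 125 members are 34.0% of those. All 125 passed the filter on low values (at least 1 FPKM in at least 3 libraries), 5 of them only through control libraries. These 5 are TRIM63, HDAC9, GABRP, MYOZ2 and AHNAK2. They entered the tests only through the group that the rule asked to be high. In bulk RNA, fewer cells of a type and less RNA per cell cannot be told apart, which holds for every level below. Sulforaphane replicate 3 stood apart from its group. Over the 1021 and 1024 rows with enough counts, the chi-square per gene was 50.8 and 58.1 in its comparisons with replicates 1 and 2. The other 7 pairs of replicates gave 2.46 to 9.54. Sulforaphane replicate 3 was the highest of its group for 74 of the 125 members (59.2%) and for 441 of the 794 other tested genes (55.5%).

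Summed over the members, the level was 4516, 4474 and 4630 FPKM in the control libraries, 1926, 1825 and 2364 FPKM with sulforaphane, and 2328, 2310 and 2368 FPKM with FSH. The control libraries stood apart from both treatments, and the sum of sulforaphane replicate 3 lay among those of the FSH libraries. Without CEMIP, the most abundant member, replicate 3 summed to 1851 FPKM, below the 2100.2 to 2111.5 FPKM of the FSH libraries. For all 125 members every treated library, of either agent, lay below every control library. Across all tested rows 38.5% showed the same separation from both treatments, 62.9% from sulforaphane and 43.5% from FSH, and edgeR called 65.3% lower with sulforaphane and 42.7% lower with FSH. Nothing is read from the members' count because the rule used these contrasts. The fold by which control exceeded sulforaphane had a median of 2.13 over the members and ranged from 1.51 to 9.85, and that for FSH had a median of 1.86 and ranged from 1.501 to 10.5. The smaller of a gene's 2 folds, called its common fall here, reached 2 in 31 members and 3 in 6 members. At the threshold, IL1A and CLDN6 lay just inside with common falls of 1.501 and 1.505, and CAMK1 and PQLC3 just outside with 1.498 and 1.496. In all, 37 genes missed the rule by less than 5%, and 27 members met it by less than 5%. These folds are on the deposited FPKM, and 47 members met the rule with FPKM rescaled by TMM factors computed from the rows.

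**Figure D1:**
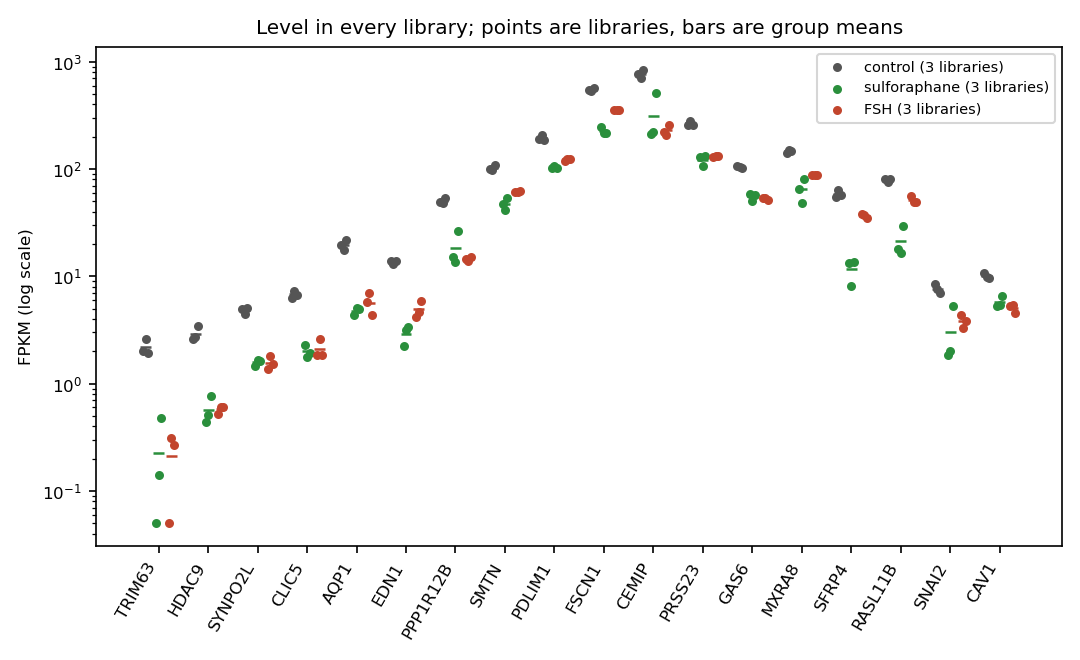
FPKM on a log scale in each of the 9 libraries for 18 members. Points are libraries and short bars are group means (3 libraries each). Every treated point lies below every control point of its gene, and for CEMIP and SNAI2 sulforaphane replicate 3 lies well above replicates 1 and 2.

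A group of 22 members encodes proteins of the contractile apparatus, of muscle cells or of actin binding. TRIM63, the muscle ubiquitin ligase MuRF1 that marks sarcomere proteins for degradation, had the largest common fall of the members. It stood at 2.03, 2.63 and 1.94 FPKM in control libraries, 0.05, 0.14 and 0.48 FPKM with sulforaphane, and 0.05, 0.31 and 0.27 FPKM with FSH. These low levels rest on 14 counts summed over the 3 sulforaphane libraries and 14 over the 3 FSH libraries, against 150 in controls, so how far the treatments differ from each other is poorly bounded (log2 difference, sulforaphane minus FSH, 0.05 with a 95% interval from -1.59 to 1.70, and -1.14 without sulforaphane replicate 3, neither passed). SYNPO2L, an actin-associated protein of the muscle Z-disc, was at 4.99, 4.41 and 5.03 FPKM in control libraries, 1.47, 1.67 and 1.62 FPKM with sulforaphane and 1.37, 1.82 and 1.51 FPKM with FSH, so that the libraries of the agents overlapped. Their log2 difference was 0.03 on library depths, which did not pass, and 0.33 with TMM and 0.41 with median-ratio scaling, which did.

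PPP1R12B encodes a regulatory subunit of myosin phosphatase, the enzyme that relaxes contraction by dephosphorylating myosin light chain. Its controls were at 49.6, 48.2 and 53.3 FPKM and its FSH libraries at 14.7, 13.9 and 15.1 FPKM. With sulforaphane, replicates 1 and 2 were at 15.1 and 13.6 FPKM, close to FSH, and replicate 3 was at 26.4 FPKM. Smoothelin (SMTN), an actin-binding protein of contractile smooth muscle, stood at 102 ± 5.52 FPKM in control libraries, 47.6 ± 6.12 FPKM with sulforaphane and 61.8 ± 0.761 FPKM with FSH (SD, n = 3 here and below). The alpha-actinin partners PDLIM1 and PDLIM2, which hold PDZ and LIM domains, were 1.87-fold and 3.96-fold lower with sulforaphane, and 1.58-fold and 2.69-fold lower with FSH.

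Several members of this group are best known from striated muscle. JPH2, a junctophilin that ties the plasma membrane to the calcium store, was at 9.96 ± 0.684, 4.51 ± 0.234 and 4.56 ± 0.255 FPKM in control, sulforaphane and FSH cells. XIRP1, an actin-binding protein of intercalated discs, stood at 17.3 ± 1.48, 9.03 ± 2.75 and 9.47 ± 0.942 FPKM in the same order. MYBPC3 (cardiac myosin-binding protein C), MYOZ2 (a Z-disc protein that binds calcineurin) and CASQ2 (the calcium-storing calsequestrin) had control means of 3.92, 2.25 and 2.23 FPKM and common falls of 2.08, 2.10 and 1.87. Gelsolin (GSN), which severs and caps filaments and was counted here on an assembled locus, was at 435 ± 21.0, 224 ± 5.58 and 227 ± 7.99 FPKM, and fascin (FSCN1), which bundles filaments into protrusions, at 551 ± 14.9, 225 ± 16.8 and 357 ± 2.21 FPKM. The deposited counts of GSN are not all whole numbers, nor are those of 13 other members (marked below as divided reads), so reads may be split with other loci and these levels are uncertain.

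The summed level of smooth muscle and myofibroblast markers was also lower with both agents. Of 33 listed markers 17 had a row in the table, and their summed level was 8167 to 8448 FPKM in control libraries, 2870 to 3115 FPKM with sulforaphane and 3677 to 3719 FPKM with FSH, most of it from ACTA2, which the rule leaves out. Of the 15 listed markers tested, 12 lay below control in every library of both treatments (38.5% of all tested rows did). Among the listed markers only CASQ2 and SMTN are members. Whether the share of contractile cells in the cultures differed was not tested. Granulosa markers had 8 of 26 listed genes in the table. These summed to 530 to 559 FPKM in control libraries, 713 to 790 FPKM with sulforaphane and 1308 to 1421 FPKM with FSH. Abundant genes weigh most in such a sum, and the 8 are rows that lay at least 1.3-fold from control. Of these granulosa markers 1, AMHR2, met the fold and level rule but was left out by symbol. No listed marker of leukocytes or erythroid cells was among the rows analysed here, and of 16 vessel markers only KDR, TIE1 and CSPG4 were, with summed levels of 6.94 to 7.83 FPKM in control libraries, 3.87 to 4.7 FPKM with sulforaphane and 4.27 to 4.61 FPKM with FSH. These sums too were lower with both agents, without overlap. Most of the control sum came from CSPG4, itself a member. CSPG4 had means of 6.06, 2.77 and 2.34 FPKM in control, sulforaphane and FSH cells. Of the 2 vessel markers tested, 1 lay below control in every library of both treatments, so the sums say little of KDR and TIE1. The part of these markers in the members' levels was not tested. Of 83 listed target genes of SRF and its actin-regulated cofactors 21 had a row. Of the 20 tested, 14 lay below control in every library of both treatments (38.5% of all tested rows did). Before genes were left out by symbol 7 met the fold and level rule, but only SMTN is a member. The rule used these contrasts, so nothing is read from such counts of listed genes. Of 15 surface epithelium markers KRT7, KRT18 and KRT8 had a row, with summed levels of 153.7 to 156.8 FPKM in control libraries, 39.4 to 46.5 FPKM with sulforaphane and 89.4 to 95.3 FPKM with FSH. Their part in the members' levels was not tested either. Of the theca and luteal markers, PTGFR and LHCGR had a row and neither is a member. Of 6 tested target genes of YAP and TAZ 3 lay below control in every library of both treatments, and 1, ANKRD1, met the fold and level rule but was left out by symbol. Their summed level was 325 to 340 FPKM in control libraries, 131 to 213 FPKM with sulforaphane and 196 to 200.2 FPKM with FSH.

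**Figure D2:**
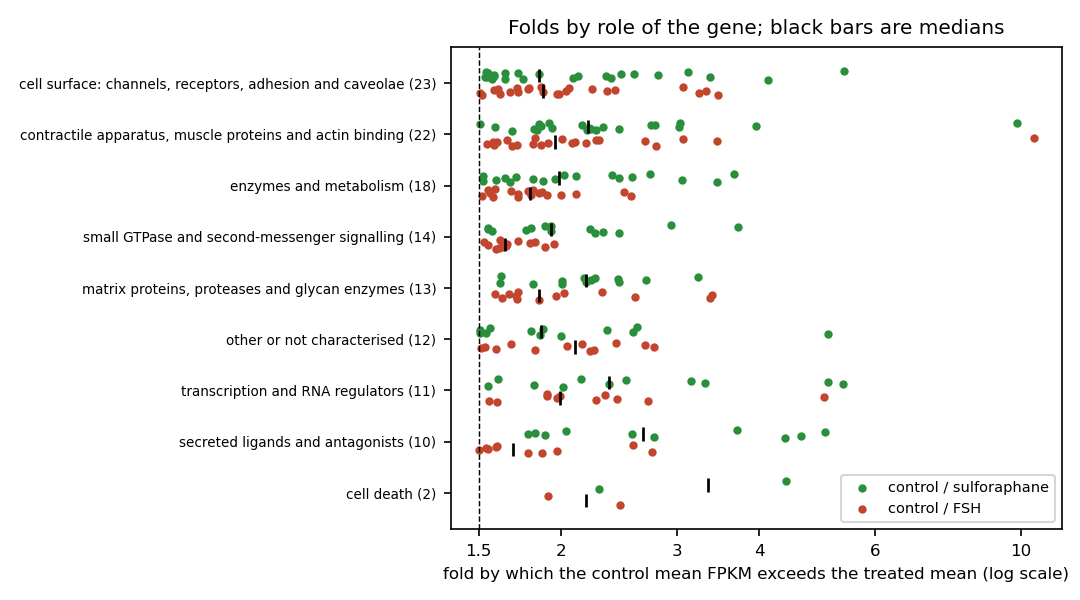
Fold by which the control mean FPKM exceeded the treated mean, on a log scale, for each member by role. Each member has a green point for sulforaphane and a red point for FSH, black bars are medians and the dashed line is the 1.5-fold threshold; secreted ligands have the widest gap between the medians of any role with 10 or more members, 2.67 for sulforaphane and 1.69 for FSH.

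Of the 10 secreted ligands and antagonists, 6 were lower with sulforaphane than with FSH, 3 of them under all 3 scalings tried. Of all tested rows 42.8% were lower on library depths and 34.3% under all 3 scalings, so the 3 are near the share of all rows. Endothelin-1 (EDN1), a vasoconstrictor peptide made in the ovary as well as in vessels, was at 13.8, 13 and 13.8 FPKM in control libraries, 2.26, 3.14 and 3.38 FPKM with sulforaphane, and 4.15, 4.69 and 5.90 FPKM with FSH. No library of one group reached those of another. SFRP4, a secreted antagonist of Wnt ligands, stood at 54.5, 64.1 and 57.7 FPKM in control libraries, 13.2, 8.20 and 13.6 FPKM with sulforaphane and 38.2, 37.5 and 34.8 FPKM with FSH. This was the largest difference between the treatments among the members (log2 difference -1.66 ± 0.158, SE; adjusted p = 1.13e-06, edgeR quasi-likelihood test with Benjamini-Hochberg adjustment over all 919 rows). ALKAL1, a ligand of the receptor kinases ALK and LTK, was at 3.24 ± 0.473, 0.740 ± 0.286 and 1.81 ± 0.0945 FPKM.

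GAS6, the ligand of the TAM receptor kinases and the most abundant ligand of the group, showed no difference that passed on library depths. It stood at 107, 105 and 103 FPKM in control libraries, 59.2, 50.1 and 57.4 FPKM with sulforaphane and 53.8, 53.7 and 51.8 FPKM with FSH, and the log2 difference between the treatments was 0.06 with a 95% interval from -0.12 to 0.24. With TMM and median-ratio scaling it was 0.36 and 0.44, and passed as higher with sulforaphane. TGFB3, a transforming growth factor, was at 10.3 ± 0.592, 5.07 ± 0.575 and 6.45 ± 0.174 FPKM, and BMPER, which binds bone morphogenetic proteins outside the cell, at 10.4 ± 1.53, 3.77 ± 0.714 and 5.57 ± 0.650 FPKM (divided reads). WISP2, a matricellular protein of the CCN family, was 3.70-fold lower with sulforaphane and 2.57-fold lower with FSH, a difference that passed without sulforaphane replicate 3 but not with it. IL1A, the cytokine interleukin 1 alpha at the very edge of the set, had 2.64 ± 0.240, 1.48 ± 0.165 and 1.76 ± 0.314 FPKM.

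Among the 13 genes of the matrix, its proteases and glycan enzymes was the most abundant member of all. CEMIP, which binds hyaluronan and promotes its breakdown, was at 776, 700 and 845 FPKM in controls and at 223, 210 and 256 FPKM with FSH. With sulforaphane, replicates 1 and 2 were at 214 and 219 FPKM, within the FSH range, and replicate 3 was at 513 FPKM. The log2 difference between the treatments was 0.46 with a 95% interval from -0.11 to 1.03 with all libraries, and -0.08 without replicate 3, neither of which passed on library depths. With TMM and median-ratio scaling it was 0.72 and 0.80, and passed as higher with sulforaphane. PRSS23, a serine protease also known from the mouse ovary, was more even, at 259, 279 and 260 FPKM in control libraries, 129, 107 and 132 FPKM with sulforaphane and 130, 133 and 131 FPKM with FSH. LTBP2, which associates with elastic microfibrils, was at 19.7 ± 1.92, 7.32 ± 2.12 and 5.82 ± 0.149 FPKM (divided reads).

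Other members of this group included TINAGL1, a matrix protein related to cathepsin B but without protease activity, at 57.3 ± 5.24, 17.7 ± 0.256 and 24.8 ± 2.24 FPKM, and MXRA8, a membrane protein of the immunoglobulin family, at 146 ± 5.40, 64.8 ± 16.6 and 87.7 ± 0.375 FPKM. CSPG4, the NG2 proteoglycan that also marks pericytes, had 6.06 ± 0.467, 2.77 ± 0.845 and 2.34 ± 0.172 FPKM. The sulphate-handling enzymes UST, which adds sulphate to uronic acids of chondroitin and dermatan chains, and ARSB, a lysosomal sulphatase of the same chains, lay closer to the threshold with common falls of 1.62 each. Of a broader list of matrix proteins, proteases and inhibitors, 37 genes had a row and 3 were members (LTBP2, ADAMTS14 and MFAP4), while 12 of the 32 tested lay below control in every library of both treatments, close to the 38.5% of all tested rows. The other lists by gene function held between 1 and 5 members each, the most being 5 each among secreted ligands (33 tested), surface receptors (41 tested) and metabolic enzymes (40 tested).

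At the cell surface, 23 members encode channels, receptors, adhesion proteins or caveolar proteins. The water channel AQP1 stood at 19.6, 17.6 and 22.0 FPKM in control libraries, 4.33, 5.08 and 4.96 FPKM with sulforaphane and 5.73, 6.98 and 4.4 FPKM with FSH. The ranges of the treatments overlapped, and both lay far below the controls. CLIC5, a chloride intracellular channel protein that also associates with cortical actin, was at 6.79 ± 0.541, 2.01 ± 0.261 and 2.10 ± 0.445 FPKM, with a log2 difference between the treatments of -0.06 (95% interval -0.39 to 0.28). GABRP, the pi subunit of the GABA type A receptor that is found in reproductive tissue, had 2.04 ± 0.303, 0.727 ± 0.341 and 0.613 ± 0.199 FPKM. TMEM37, related to the gamma subunits of calcium channels, had 3.46 ± 0.320, 0.643 ± 0.238 and 1.13 ± 0.0265 FPKM and was lower with sulforaphane than with FSH.

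Caveolins form the coat of the flask-shaped membrane pits called caveolae. CAV1 was at 10.7, 9.89 and 9.70 FPKM in control libraries, 5.33, 5.44 and 6.54 FPKM with sulforaphane and 5.27, 5.44 and 4.55 FPKM with FSH, and its neighbour CAV2 at 2.64 ± 0.163, 1.60 ± 0.191 and 1.63 ± 0.0451 FPKM. Both were members with similar folds (CAV1 1.75 and 1.98, CAV2 1.64 and 1.61, for sulforaphane and FSH). The guidance receptors EPHA4 and ROBO2 had control means of 11.9 and 2.37 FPKM. EPHA4 was 2.13-fold and 2.03-fold lower with sulforaphane and FSH, whereas ROBO2 was 3.12-fold and 1.79-fold lower. Claudin 6 (CLDN6), a tight junction protein, was at 99.0, 100 and 91.8 FPKM in control libraries, 46.5, 42.9 and 32.8 FPKM with sulforaphane and 64.8, 64.6 and 63.8 FPKM with FSH. EMP1, an epithelial membrane protein, was higher with sulforaphane than with FSH, at 83.2 ± 9.28, 52.6 ± 11.9 and 35.4 ± 1.55 FPKM. GPER1, a membrane receptor for oestrogen, was 1.58-fold lower with each agent.

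The 14 members of small GTPase and second-messenger signalling had the smallest median fold with FSH of any role with 10 or more members, 1.65. RASL11B, a small GTPase of the Ras family, had the widest gap between the treatments in its group, with 80.7, 76.0 and 80.8 FPKM in control libraries, 18.1, 16.3 and 29.5 FPKM with sulforaphane and 56.6, 49.2 and 49.4 FPKM with FSH. Its paralog RASL11A stood at 17.96 ± 0.794, 11.6 ± 3.30 and 10.01 ± 0.713 FPKM. PAK1, a kinase that acts downstream of RAC and CDC42 on the cytoskeleton, was at 22.5 ± 1.06, 12.7 ± 2.22 and 14.5 ± 0.582 FPKM, and the exchange factor KALRN at 3.68 ± 0.165, 1.90 ± 0.458 and 2.23 ± 0.0854 FPKM. PKIG, an inhibitor of protein kinase A, had 49.8 ± 1.301, 22.5 ± 4.66 and 30.3 ± 1.21 FPKM, and RCAN2, an inhibitor of calcineurin, 18.5 ± 0.818, 9.77 ± 0.965 and 10.1 ± 0.507 FPKM.

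Of 11 transcription and RNA regulators, HDAC9 had the second largest common fall of all members. This class IIa histone deacetylase, which represses MEF2 factors in muscle, stood at 2.62, 2.70 and 3.43 FPKM in control libraries, 0.44, 0.51 and 0.77 FPKM with sulforaphane and 0.52, 0.61 and 0.61 FPKM with FSH. The folds against control were 5.09 and 5.03. The log2 difference between the agents was 0.08 (95% interval -0.33 to 0.49), which did not pass on library depths or with TMM. With median-ratio scaling it was 0.45 and passed, but HDAC9 met the filter on low values only through control libraries. SNAI2, the repressor Slug of epithelial-mesenchymal transition, was at 8.47, 7.57 and 6.93 FPKM in controls and 4.4, 3.32 and 3.81 FPKM with FSH. Its sulforaphane libraries were split, with 1.83 and 2 FPKM in replicates 1 and 2 and 5.33 FPKM in replicate 3. With all libraries its log2 difference between the treatments was -0.34 and did not pass (adjusted p = 0.419, edgeR), and without replicate 3 it was -1.01 and passed.

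The homeobox factor DLX5 was at 6.26 ± 0.565, 1.89 ± 0.379 and 3.18 ± 0.640 FPKM. It was lower with sulforaphane than with FSH on library depths, a difference that did not pass with TMM scaling. ATOH8 and TCF23, both basic helix-loop-helix factors, were 2.36-fold and 2.15-fold lower with sulforaphane and 2.26-fold and 2.33-fold lower with FSH. KHDRBS3, an RNA-binding splicing regulator, had 40.1 ± 2.03, 12.7 ± 2.24 and 21.0 ± 1.07 FPKM. ARNT2, a dimer partner of basic helix-loop-helix PAS factors, was at 37.7 ± 1.72, 24.4 ± 3.56 and 24.2 ± 1.24 FPKM.

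The 18 genes of enzymes and metabolism had common falls of at most 1.96. ENO3, the muscle isoform of enolase, was at 189, 194 and 193 FPKM in control libraries, 67.4, 70.0 and 51.0 FPKM with sulforaphane and 105, 109 and 106 FPKM with FSH, without overlap between any of the groups. SELENOP, the secreted selenium carrier, had 132 ± 18.1, 48.2 ± 10.96 and 82.9 ± 1.21 FPKM (divided reads). Adenosine deaminase (ADA) had 6.40 ± 0.224, 1.85 ± 0.333 and 3.72 ± 0.217 FPKM. Of 5 tested rows annotated to arachidonic acid metabolism in the deposited KEGG column 3 were members: PTGIS, the prostacyclin synthase, at 12.7 ± 1.32, 6.03 ± 1.08 and 7.55 ± 0.519 FPKM, PLA2G3, a secreted phospholipase A2, at 20.2 ± 1.40, 8.23 ± 0.410 and 10.9 ± 0.757 FPKM, and CYP4F55, a cytochrome P450 with divided reads, at 8.60 ± 0.907, 5.65 ± 0.258 and 3.36 ± 0.168 FPKM. Of all 383 tested rows with a KEGG pathway 44 were members, and enrichment was not tested. The sterol enzymes CYP51 and MSMO1, which both act on the path from lanosterol to cholesterol, were members with common falls of 1.59 and 1.65.

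BOK, a pro-apoptotic BCL2 family protein, stood at 14.2 ± 0.557, 6.21 ± 0.370 and 5.77 ± 0.150 FPKM. LOC100522011, annotated as similar to the inflammasome adaptor ASC, was at 3.14 ± 0.460, 0.713 ± 0.179 and 1.64 ± 0.387 FPKM. The remaining 12 members have other or uncharacterised roles. C5H12orf75, an open reading frame with no assigned role here, had 7.51 ± 0.801, 1.48 ± 0.0351 and 4.11 ± 0.592 FPKM, the second largest difference between the treatments.

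**Figure D3:**
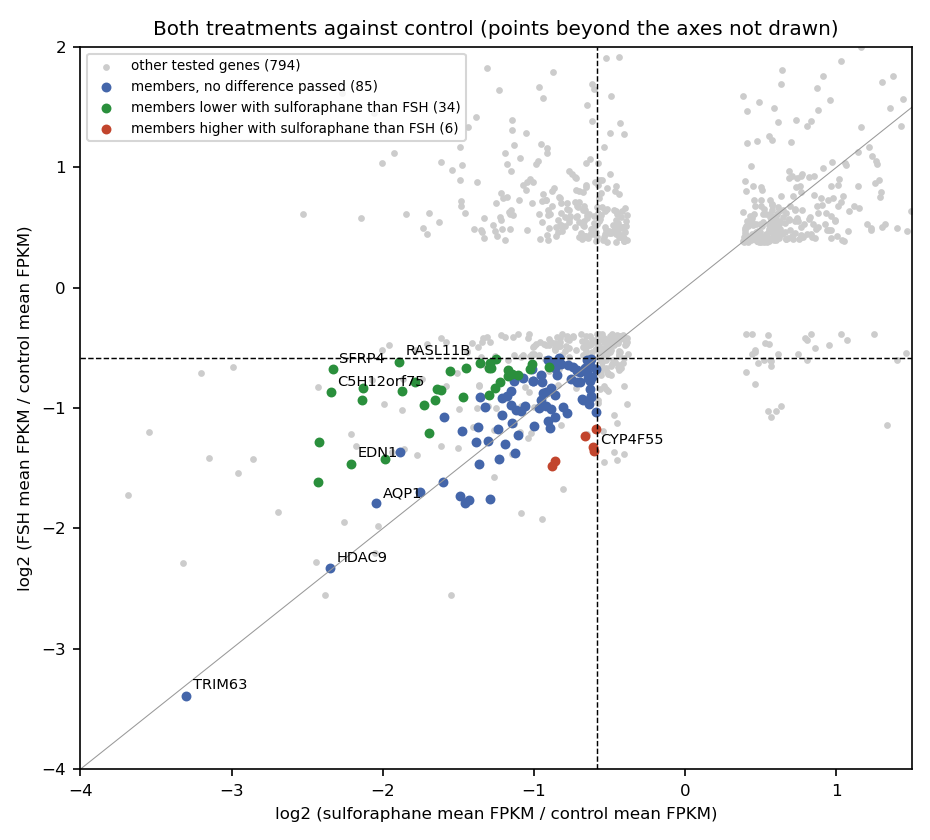
Log2 ratio of mean FPKM to control for sulforaphane (horizontal) and FSH (vertical). Grey points are other tested genes, coloured points the 125 members by the test of sulforaphane against FSH (34 lower, 6 higher, 85 not passed), dashed lines the 1.5-fold threshold and the solid line equal response; no tested gene lies within 1.3-fold of control on either axis.

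The comparison of sulforaphane with FSH asked whether the agents lowered these genes to the same level. Of the 125 members, 34 (27.2%) were lower with sulforaphane than with FSH and 6 (4.8%) were higher (edgeR quasi-likelihood test, Benjamini-Hochberg adjusted p under 0.05 over all 919 rows). Among all tested rows 42.8% were lower and 12.9% higher. A rule that asks both agents to be low narrows the difference they can show, so the smaller shares of the members are not a result. Sulforaphane libraries all below every FSH library were seen in 39 members (44.3% of all tested rows), and FSH libraries all below every sulforaphane library in 9 (15.1%). The 34 included 6 of the 10 secreted ligands, 7 of the 18 enzyme and metabolism genes and 5 of the 14 signalling genes. They also included 4 of the 22 muscle and actin genes, 4 of the 23 surface genes and 3 of the 13 matrix genes. The median log2 difference was -0.10 over the members and -0.18 over all tested rows.

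The counts depended on how libraries were scaled. TMM factors, computed from the rows of the table, raised the log2 difference of all tested rows by a median of 0.30, and median-ratio factors by 0.37. With TMM factors 17 members were lower and 41 higher with sulforaphane than with FSH (13.6% and 32.8%, against 35.6% and 34.8% of all tested rows), and with median-ratio factors 16 were lower and 51 higher (34.3% and 42.2% of all tested rows). In all 3 scalings 16 members were lower and 6 were higher, against 34.3% and 12.9% of all tested rows. Without sulforaphane replicate 3, on library depths, 49 were lower and 9 higher (49.9% and 14.6% of all tested rows). The 49 hold all 34 called with every library and 15 more, among them SNAI2, WISP2, EPHA4 and KALRN.

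The 16 that were lower with sulforaphane under every one of these scalings were SFRP4, C5H12orf75, RASL11B, ALKAL1, LOC100522011, C17H8orf4, SCRN1, ADA, TESC (divided reads), ROBO2, TMEM37, SELENOP (divided reads), ENO3, EDN1, KHDRBS3 and FSCN1. Their log2 differences on library depths ran from -1.66 for SFRP4 to -0.67 for FSCN1 (± 0.0691, SE; adjusted p = 2.50e-06, edgeR). RASL11B differed by -1.28 ± 0.176 (SE; adjusted p = 2.99e-05, edgeR), with all 3 sulforaphane libraries below all 3 FSH libraries. SCRN1, a secernin of uncertain function, differed by -1.02 ± 0.107 (SE) and was at 10.6 ± 0.789, 2.88 ± 0.358 and 5.82 ± 0.246 FPKM. C17H8orf4, the pig homolog of the human C8orf4 gene, stood at 15.9, 17.5 and 17.2 FPKM in control libraries, 1.98, 1.90 and 5.55 FPKM with sulforaphane and 6.64, 6.97 and 7.16 FPKM with FSH, and its log2 difference was -1.15 with all libraries and -1.84 without replicate 3.

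The 6 that were higher with sulforaphane, and so lowest with FSH, in all 3 scalings included CYP4F55, PRUNE2, AHNAK2 and EMP1. CYP4F55 differed by 0.74 ± 0.118 (SE; adjusted p = 0.000112, edgeR). AHNAK2, a giant scaffold protein, was at 1.84, 1.96 and 2.2 FPKM in control libraries, 1.18, 0.87 and 1.21 FPKM with sulforaphane and 0.78, 0.68 and 0.69 FPKM with FSH. Because AHNAK2 passed the filter on low values only through control libraries, its call carries little weight. PRUNE2 had 3.10 ± 0.345, 2.03 ± 0.505 and 1.24 ± 0.0557 FPKM. Each of these 6 had all 3 sulforaphane libraries above all 3 FSH libraries.

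For the other 85 members no difference between the agents passed on library depths. Their 95% intervals had a median distance from centre to end of 0.34 on the log2 scale, and for 57 of them the whole interval lay within 1.5-fold (0.58 on the log2 scale) in either direction. The remainder include genes whose intervals are wide, such as TRIM63, and genes spread by sulforaphane replicate 3, such as CEMIP and SNAI2. A missed threshold does not show that the agents act alike on these genes.

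**Figure D4:**
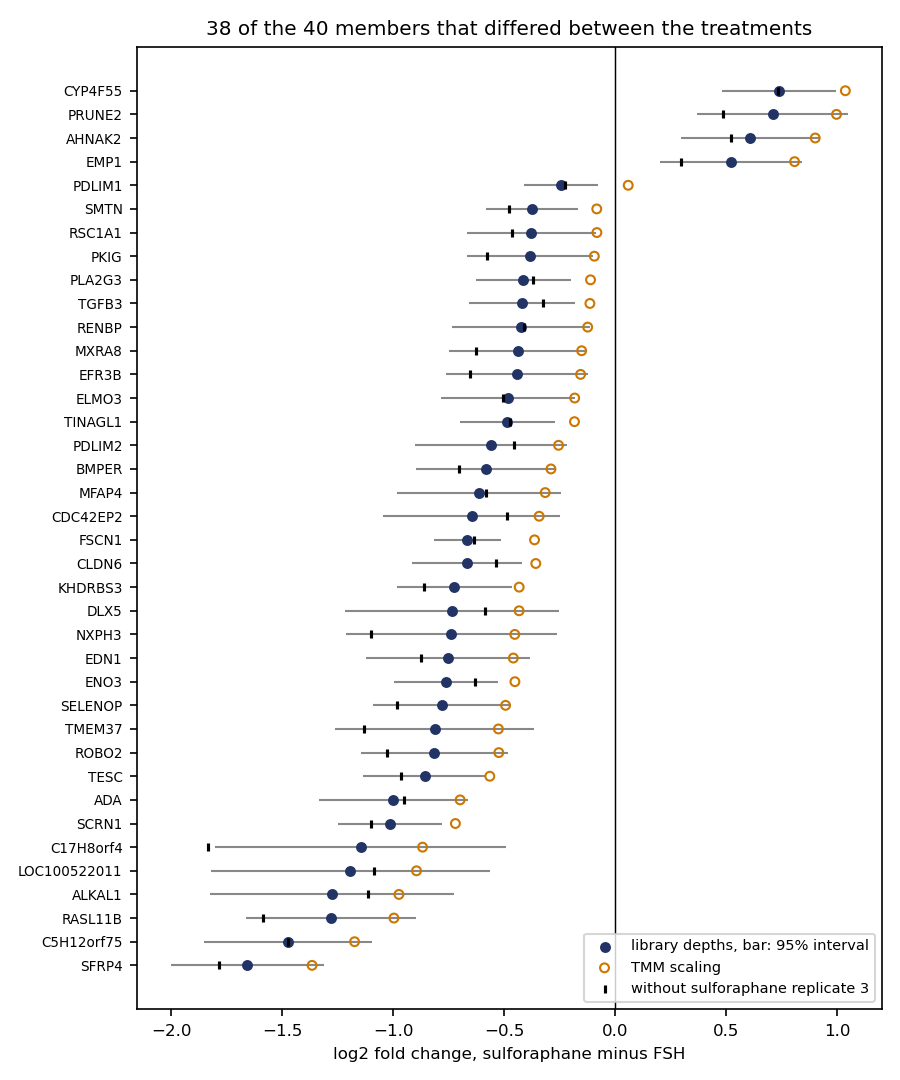
Log2 fold change, sulforaphane minus FSH, for 38 of the 40 members that passed on library depths. Filled points are fitted values with 95% intervals, open circles the values with TMM scaling and ticks those without sulforaphane replicate 3; TMM moves every gene shown to the right and takes PDLIM1 from -0.24 to 0.06.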

How the data were processed

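Per the labels' protocols, messenger RNA from 9 pig granulosa cell libraries was selected with oligo(dT) and sequenced on an Illumina machine. No step that marks the strand is mentioned. Tools listed in the submitters' processing notes, with no role given, are StringTie 1.3.1, HISAT2, Bowtie2 2.2.8, fastp, edgeR and DESeq2, with the build Sscrofa11.1. The deposited table gives FPKM and an estimated count per gene and library, per the file headers; in 143 rows a count is not whole. Value columns of no mapped sample numbered 0. The choice of rows for deposit is not described by the sources used.

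Counts were rounded. Relative depth came from count/FPKM of 354 genes and absolute depth from 10 genes at a common maximum of that ratio over gene span (within 0.1%); intervals and counts rest on these depths. A single model of the 3 groups was fitted with edgeR 4.0.16 to the 919 genes reaching 1 FPKM in 3 or more libraries (quasi-likelihood, Benjamini-Hochberg, threshold 0.05, R 4.3.3). The fit was checked on simulated counts with a shared dispersion, known depths and no outlying library. That check does not bear on sulforaphane replicate 3 or on the scaling. DESeq2 1.42.0 and limma 3.58.1 on log2(FPKM + 1) were alternatives. SE is the log2 fold change over the square root of F. The common dispersion was 0.0118. Each pair of replicates differed by more than sampling noise.

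Members and gene lists were chosen with earlier results of these data known. Named genes are the members with the highest control level, the largest common fall, the largest differences between treatments, those nearest the threshold and the 3 members with the highest control level in each of 20 lists; others named were chosen after their values were seen. No sequences are shown. A few members and 1 list are not reported here.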

Additional observations from a re-analysis of the deposited data

How the results depend on the processing

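The number of genes that the rule selects was 125 and depends on its settings. It was 31 at 2-fold and 79 with a control mean of at least 5 FPKM. With FPKM rescaled by TMM factors it was 47 (all 47 are members), and with median-ratio factors 74 (73 are members). Without each library in turn it ran from 114 to 135. TMM raised the log2 difference from control by 0.476 with sulforaphane and 0.176 with FSH. Members that missed the rule with TMM include GSN, FSCN1, SMTN, PDLIM1, GAS6, SFRP4, CAV1, CAV2, MXRA8, SELENOP and RASL11B. So did TRIM63, whose control mean is near the 2 FPKM level. Of these, PDLIM1, GAS6, CAV1 and CAV2 also missed it with median-ratio factors. Members lower with sulforaphane than FSH numbered 17 with TMM, 16 with median-ratio scaling and 16 with DESeq2 (34 on library depths), and members higher numbered 41, 51 and 48 (6 on library depths) and 3 with a mean of at least 5 FPKM, where 64 members were tested. Without each library in turn the lower count ran from 30 to 49 and the higher count from 6 to 11; the highest values came without sulforaphane replicate 3 and without sulforaphane replicate 2. The median log2 difference of the members, -0.100, became 0.197 with TMM and 0.272 with median-ratio scaling and with DESeq2. In all, 41 members went from below 0 to above 0 with TMM. Among named members, 6 changed sign under the same 3 settings (TMM, median-ratio, DESeq2) and passed on library depths or under at least 1 of them: ACSF2 (divided reads) at 0.211, 0.287 and 0.287, CADM1 at 0.250, 0.326 and 0.326, GPR157 at 0.266, 0.343 and 0.342, GSN (divided reads) at 0.280, 0.356 and 0.356, PDLIM1 at 0.059, 0.135 and 0.135, and PRSS23 at 0.197, 0.272 and 0.272. These factors assume that most rows did not differ, and they were computed from a table in which no tested row lies within 1.3-fold of control; which scaling is right was not tested. Both limma fits and no filter changed no call among the 51 named members, nor did a mean of at least 5 FPKM among the 27 it tested. The main fit did not pair samples by replicate number. Same-numbered libraries had correlations of deviations from -0.181 to 0.211, and other-numbered libraries from -0.153 to 0.156. With 3 libraries per group these values cannot decide whether the samples were paired. With a replicate block 36 members were lower and 6 higher.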

Other observations

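Several members lie close to each other on the pig genome (Sscrofa11.1 annotation). PKIG and ADA are 448 bp apart on chromosome 17, at 46933418 to 47044044 and 47044492 to 47072232. WISP2 lies further on, at 47131236 to 47146455, with 1 annotated gene between ADA and WISP2 that is not analysed here. PKIG encodes a protein kinase A inhibitor, ADA adenosine deaminase and WISP2 a CCN family protein, and their common falls were 1.64, 1.72 and 2.57. CAV1 and CAV2 lie 16.6 kb apart on chromosome 18 (29648120 to 29682451 and 29699012 to 29707277) with no annotated gene between them. SMTN and PLA2G3 lie 20.3 kb apart on chromosome 14, with 2 annotated genes between them. RAPSN, which clusters acetylcholine receptors, and MYBPC3 lie 66.7 kb apart on chromosome 2, with 3 annotated genes between them. None of these genes between is analysed here. In all, 9 pairs of successive members lay within 200 kb. How many such pairs other rows of the table would give was not tested.

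The deposited KEGG column annotates 383 of the tested rows, and 44 of these are members. Bacterial invasion of epithelial cells held 4 members among 7 tested rows (CAV1, CAV2, ELMO3, an engulfment and motility protein, and CTNNA2, an alpha catenin), and cell adhesion molecules held 3 among 8 (CLDN6, CADM1 and CD34). Axon guidance held 4 among 20 (SEMA3B, EPHA4, ROBO2 and PAK1). Broader pathways held 9 among 78 (metabolic pathways), 4 among 44 (pathways in cancer) and 4 among 28 (MAPK signaling). These are counts of annotations, with no test of enrichment. The transcripts of members had a median length of 2.53 kb as implied by count and FPKM, against 3.14 kb for the other 794 tested rows.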
